A study of Mus musculus with 6 samples.

Results

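The apolipoprotein L (Apol) family was followed through the cells of mouse pancreatic tumours. The 5 members described here, Apol7c, Apol10b, Apol9a, Apol9b and Apol6, were taken by symbol from the 32285 genes in the count files, where 14 genes carry an Apol symbol. The set was put together around Apol7c, which had been picked because its UMI counts in macrophage-like cells differed between the groups in these same libraries. That contrast is therefore given below as a description, with no test. A UMI (unique molecular identifier) is a barcode added to every captured RNA molecule, so that copies made by PCR are counted as 1.

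KPC cells, pancreatic tumour cells from mice with a Pdx1-driven Cre, were injected into the pancreas of wild-type C57BL/6 mice. The cells carried either a control vector (OE-Vector) or an MLKL overexpression construct (OE-MLKL), MLKL being the pseudokinase that ruptures the plasma membrane in necroptosis. Primary tumours were taken 4 weeks after injection, dissociated and sequenced with a droplet-based 3′ single-cell method. The labels do not give the ages of these mice, for which the methods of the study give a range of weeks at injection. The labels name 6 samples, and count matrices of 4 tumours were used, OE-Vector 1 and OE-MLKL 1, 2 and 3, so that OE-Vector had no replicate; the counts of OE-Vector 2 and 3 were not analysed here. Although the labels call the material pancreatic cancer cells, most cells in each library were immune or stromal by their markers.

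Apolipoproteins L are intracellular proteins that bind lipid and carry a membrane-inserting domain resembling that of the BCL2 family and of bacterial pore formers. Many members are induced by interferons and by inflammatory signals, and the mouse genes form a cluster of recent duplicates. Apol7c has been described in dendritic cells, the antigen-presenting cells that prime T cells, and Apol9a and Apol9b are closely related genes known to be induced by interferon.

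Of the 14 Apol genes, 12 lie within 712 kb of chromosome 15 (77044729 to 77757003, GRCm38, GENCODE vM21 annotation). All 5 members are protein-coding genes of this cluster. Apol6 (77044729 to 77057106, plus strand) overlaps the gene Mb on the other strand. Apol9a (77403789 to 77411135, minus strand), Apol7c (77524852 to 77533316, minus strand), Apol10b (77583819 to 77596125, minus strand) and Apol9b (77729039 to 77736382, plus strand) overlap no other annotated gene. The last transcript stretches, which the 3′ method reads, are partly shared between paralogs. Of the last 500 words of 90 bases in the Apol9a transcript, 32.2% also occur in Apol9b, and the share is the same in the other direction, so how their counts divide is uncertain. Over the whole transcripts, 43.6% of the Apol9a words occur in Apol9b and 37.3% of the Apol9b words in Apol9a. Apol7c shares 8.8% of its last 500 words, and 3.15% of all, with Apol7a, its closest relative by this measure.

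The promoters are shown because the members are often induced by interferon, through factors that bind the interferon-stimulated response element. The 100 bases from 80 before to 20 after the RefSeq start (GRCm38.p6) are given 5′ to 3′ on the strand of the gene. Capitals mark every run of overlapping matches to the core motif of the element, TTTC followed after any 2 bases by TTTC, searched on both strands (on the other strand GAAA followed after any 2 bases by GAAA). The regions are chr15:77533296-77533395 for Apol7c, chr15:77596106-77596205 for Apol10b, chr15:77411061-77411160 for Apol9a and chr15:77728992-77729091 for Apol9b; Apol6 had no entry.
Apol7c: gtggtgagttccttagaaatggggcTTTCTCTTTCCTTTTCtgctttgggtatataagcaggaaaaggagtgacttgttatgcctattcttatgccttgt
Apol10b: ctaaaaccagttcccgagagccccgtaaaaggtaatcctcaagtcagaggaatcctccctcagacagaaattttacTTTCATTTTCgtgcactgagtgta
Apol9a: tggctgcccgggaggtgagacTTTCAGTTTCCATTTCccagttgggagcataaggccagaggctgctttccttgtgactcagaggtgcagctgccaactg
Apol9b: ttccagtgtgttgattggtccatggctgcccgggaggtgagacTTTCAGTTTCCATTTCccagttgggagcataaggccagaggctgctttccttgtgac

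Each of these 4 promoters held the motif, Apol7c, Apol9a and Apol9b with 2 overlapping matches and Apol10b with 1. Within the window from 250 bases before to 50 after the start, 8 of the 12 Apol genes with an entry had a match, against 3.44% of 32851 promoters. Apol7a, Apol7b, Apol8 and Apold1 had none. The Apol9a and Apol9b promoters shared an unbroken run of 278 bases, and no other pair of the 4 shared more than 10. A second interferon motif, the gamma-activated site TTCNNNGAA, occurred in 8.30% of promoters and in none of these 4, though in 4 of the 12 Apol genes with an entry, Apol10a, Apol11a, Apol11b and Apold1. A match is a run of letters and was not shown to be bound.

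The 4 matrices held 150591289 to 169978362 UMIs, and 13489 to 18808 cells per library were kept. In macrophage-like and neutrophil-like cells the libraries stood in pairs that cut across the labels: OE-Vector 1 and OE-MLKL 3 filled the same clusters, and OE-MLKL 1 and 2 filled others. Of the macrophage-like cells in cluster 5, 1462 came from OE-Vector 1 and 2542 from OE-MLKL 3, but 173 and 281 from OE-MLKL 1 and 2; cluster 4 held 218, 115, 2237 and 1904 in the same order. In cancer-like cells OE-Vector 1 and OE-MLKL 3 stood apart as well, with 1302 and 126 cells in cluster 10 and 213 and 2448 in cluster 9, while most cells of OE-MLKL 1 and 2 were in cluster 0 (4694 and 3731, against 145 and 91). Mlkl itself, the gene of the construct, did not separate the groups. In cancer-like cells it stood at 16.5 CPM (UMIs on the counts-per-million scale) in OE-Vector 1 and at 8.85, 13.1 and 19.6 in OE-MLKL (log2 fold change −0.37 ± 0.38 (SE), adjusted p = 0.9995, edgeR's quasi-likelihood test), and whether the construct carries the 3′ end counted here is not given in the sources used here. From here on, values are in the order OE-Vector 1, OE-MLKL 1, 2 and 3, levels are CPM over all UMIs of the same cells, and fold changes are log2 of the libraries labelled OE-MLKL over the library labelled OE-Vector. Pairs of libraries shared 53 to 90 cell barcodes, and none of the cells with Apol7c in OE-MLKL had a barcode of an OE-Vector cell.

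Apol7c was found almost wholly in the OE-Vector library, and there in macrophage-like cells and mature dendritic cells. The kept cells held 328 Apol7c UMIs in OE-Vector 1 and 3, 2 and 9 in the OE-MLKL libraries, in 135, 3, 2 and 9 cells. Counted over all barcodes, cells or not, the numbers were 467, 8, 5 and 18. Of the OE-Vector UMIs, 82.9% were in macrophage-like cells, 7.32% in dendritic cell-like cells and 5.49% in cancer-like cells.

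In macrophage-like cells (1680, 2410, 2185 and 2657 cells), Apol7c stood at 18.5 in OE-Vector 1 (272 UMIs, exact Poisson 95% interval 16.4 to 20.9) and at 0.273, 0.0888 and 0.207 in the OE-MLKL libraries (3, 1 and 4 UMIs). The OE-MLKL mean was 0.190 ± 0.0934 (SD, n = 3). OE-Vector 1 was 96.3-fold above the pooled OE-MLKL libraries (exact interval 48.2 to 225, counting error only), which is the difference the gene was picked for. The share of macrophage-like cells with an Apol7c UMI was 5.54%, 0.124%, 0.0458% and 0.151%. Thinned to 1000 UMIs a cell, the shares were 1.29%, 0.0417%, 0.0459% and 0.0379%.

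**Figure D1:**
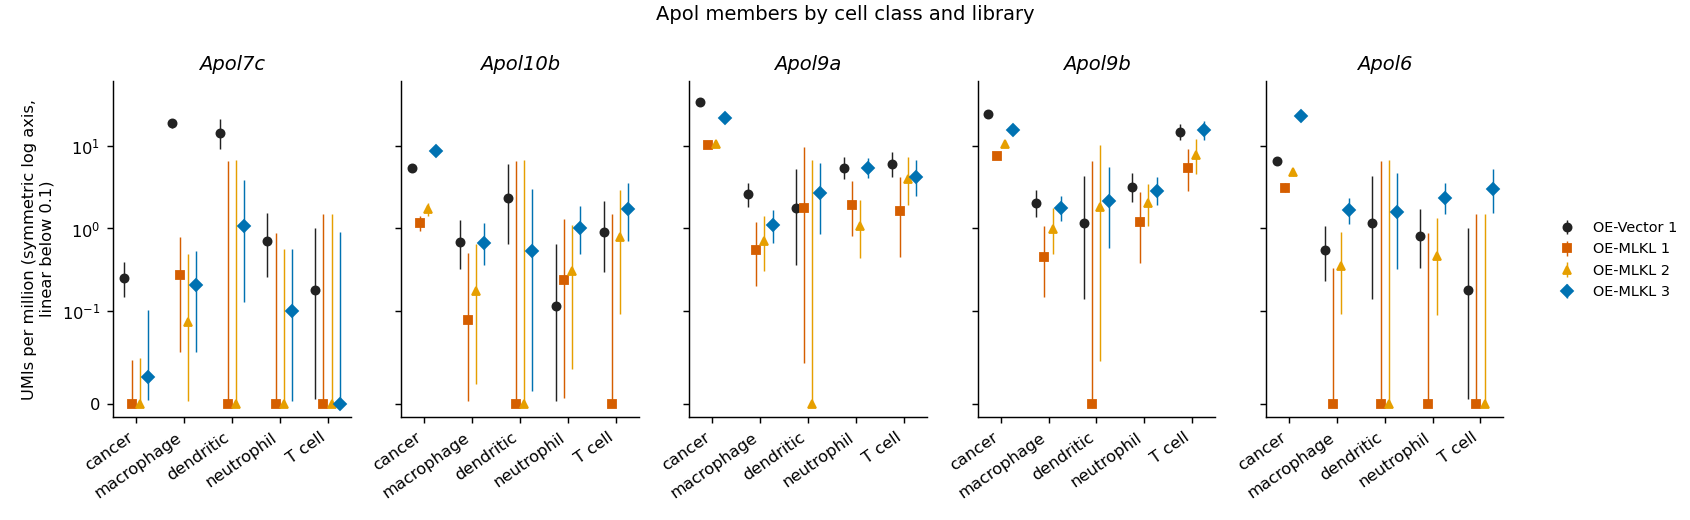
CPM of each member (vertical, symmetric log axis, linear below 0.1) in 5 cell classes, by library; bars are exact 95% Poisson intervals, hidden where smaller than the point. Apol7c is highest in macrophage-like and dendritic cell-like cells of OE-Vector 1, at 18.5 and 14.2, and the other members are highest in cancer-like cells, Apol9a and Apol9b in OE-Vector 1 and Apol6 and Apol10b in OE-MLKL 3; Apol9b also stands at 5.34 to 15.4 in T cell-like cells.

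The Apol7c UMIs were unevenly spread over macrophage-like cells. In OE-Vector 1, 49 cells held 1 UMI and 44 held 2 or more, and 1 cell of 11111 UMIs held 37. The 10 cells with the most held 114 UMIs, 41.9% of the total, and each of the cells with Apol7c in the OE-MLKL libraries held 1. Without the cell with the most UMIs, an alternative chosen after seeing the data, the OE-Vector level was 16.03 (14.0 to 18.2). That level lies under the interval of all these cells (16.4 to 20.9), since the intervals take UMIs as independent and so are too narrow for such uneven counts.

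**Figure D2:**
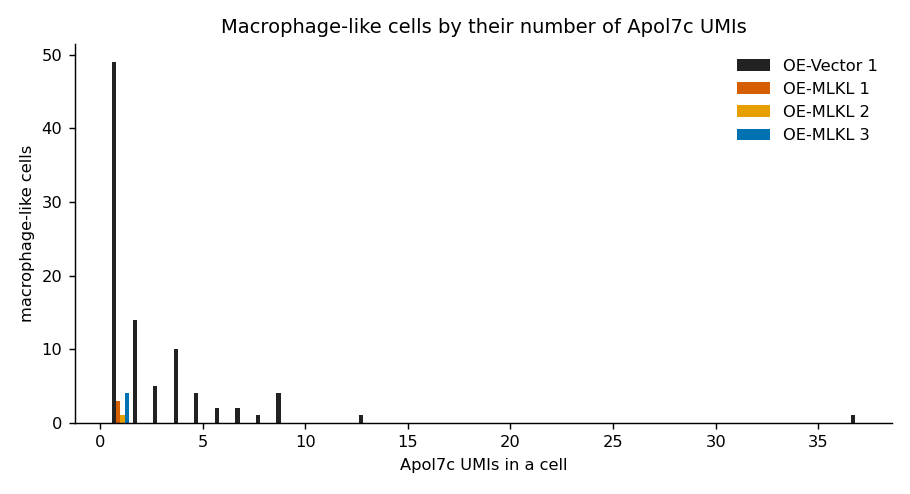
Number of macrophage-like cells (vertical) by the Apol7c UMIs they held (horizontal, from 1), by library. The OE-Vector 1 bars reach from 49 cells with 1 UMI to 1 cell with 37, while the 3, 1 and 4 OE-MLKL cells all held 1.

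Nearly all Apol7c UMIs of the OE-Vector macrophage-like cells lay in cluster 5, which held 87.0% of these cells. Few lay in cluster 4 or in a similar cluster left unnamed. The complement genes C1qa and C1qc were among the leading genes of clusters 4 and 5 alike. Cluster 5, led by Ms4a7 and Fcrls, held 266, 1, 0 and 4 UMIs, a level of 19.4 in OE-Vector 1. Cluster 4, led by Cd163 and Mrc1, scavenger and mannose receptors, held 6, 2, 1 and 0 UMIs, and the OE-Vector level was 6.36 from 218 cells. Cluster 18, led by Mmp12 and Arg1 and left unnamed, held 6, 0, 0 and 0 in 321, 42, 78 and 43 cells. Its OE-Vector level of 2.29 was under that of free RNA, read from the barcodes with 100 UMIs or fewer, in the same library (2.48), and no difference was detectable there at this depth. OE-MLKL 3, which had 2542 cells in cluster 5, had 4 UMIs there against 266 in 1462 OE-Vector cells. At a finer clustering, the highest level was in a macrophage-like cluster led by Serpina3g, Ccl12 and Cxcl9, the last a chemokine induced by interferon-gamma. It stood at 52.1 in OE-Vector 1 (115 UMIs, 250 cells, interval 43.0 to 62.5), against 1, 0 and 0 UMIs in 130, 211 and 330 cells.

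The 93 OE-Vector macrophage-like cells with Apol7c were set beside the 1587 without it, as a description within 1 library. Their median depth was 10633 UMIs against 8180, and 91 of the 93 were in cluster 5, as were 1371 of the 1587. Genes higher in the cells with Apol7c included Gbp2b, an interferon-induced GTPase (74.7 against 9.01), Dnase1l3, a secreted DNase (198 against 31.1), and Ccl24, an eosinophil chemokine (747 against 145). Pdcd1lg2, the PD-1 ligand PD-L2, was at 79.6 against 15.5, Serpina3g at 350 against 95.8 and the macrophage elastase Mmp12 at 321 against 89.7. Lower in the same cells were Saa3 (18.7 against 185), F13a1 (81.6 against 297) and the monocyte chemokine Ccl2 (91.4 against 298). The share of cells with a Saa3 UMI was nearly equal, at 18.3% against 18.8%. For F13a1 it was 29.0% against 51.7% and for Ccl2 33.3% against 52.2%. The summed level of 15 interferon-gamma-induced genes was 4445 against 2263, and that of 18 type I interferon-induced genes 982 against 860. Dendritic maturation genes summed to 529 against 409 and NF-kappaB target genes to 1988 against 1542. Summed dendritic markers were at 404 against 250 and macrophage markers at 30986 against 34105. The part of the greater depth of the cells with Apol7c in these differences was not tested.

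In dendritic cell-like cells (233, 104, 107 and 225 cells), Apol7c stood at 14.2 in OE-Vector 1 (24 UMIs in 10 cells, interval 9.07 to 21.1), at 0 in OE-MLKL 1 and 2, and at 1.06 in OE-MLKL 3 (2 UMIs). In the OE-MLKL 1 and 2 cells, 3 counts would correspond to levels of 5.22 and 5.42, which is below the OE-Vector interval. OE-Vector 1 was 21.3-fold above the pooled OE-MLKL libraries (interval 5.29 to 186). The log2 fold change was −4.32 ± 1.16 (SE) and ran from −4.57 to −2.54 over the 11 settings in which Apol7c was fitted, which were not all settings of the class. Apol7c was the only member fitted in this class and passed the filter on low counts through the OE-Vector library alone, so no difference is read from its p-values. Over all 9454 genes, of which 22 (0.233%) were called, its adjusted p was 0.174 (edgeR's quasi-likelihood test with Benjamini-Hochberg adjustment). Of 10 alternatives, those without the filter on low counts (adjusted p = 0.00561, 0.667% of genes called) and without OE-MLKL 1 (adjusted p = 0.0325, 0.831% called) were under the threshold by edgeR. With doublets kept, OE-MLKL 1 stood at 6.49 in place of 0, and the log2 fold change was −2.54 (adjusted p = 0.645 by edgeR). Its OE-Vector level lay above all 3 OE-MLKL libraries, as did those of 23.1% of the genes tested. Thinned to 1000 UMIs a cell, 1.74% of OE-Vector dendritic cell-like cells and none of the others kept an Apol7c UMI.

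Within the dendritic cells, Apol7c lay in the mature subset. The Ccr7-mature-like subset, defined by Ccr7, the receptor that guides dendritic cells to lymph nodes, and by Fscn1 and Ccl22, held 21 of the 24 OE-Vector UMIs, in 8 of 44 cells. Its OE-Vector level of 83.9 (interval 52.0 to 128) was the highest Apol7c level of the classes, clusters and subsets described here. The subset had 3, 16 and 24 cells in the OE-MLKL libraries, with 0, 0 and 2 UMIs, a level of 15 in OE-MLKL 3 whose interval (1.82 to 54.2) overlaps that of OE-Vector 1. At so few cells, levels up to 227 in OE-MLKL 1 and 52.9 in OE-MLKL 2 would still be read as 0, so a difference was not detectable against OE-MLKL 1, and for OE-MLKL 2 the limit lay below the OE-Vector level but inside its interval. OE-Vector 1 was 8.53-fold above the pooled OE-MLKL cells of the subset (interval 2.08 to 75.02, counting error only). The Cd209a-like subset held 2 UMIs, both in OE-Vector 1. The Xcr1-Clec9a-like subset, the cross-presenting type, held none in 57, 48, 40 and 141 cells, which allows levels up to 3.74, 10.2, 10.9 and 2.11. Clusters left unnamed held further cells of the class, one led by F10, Vcan and Adgre4 with 80, 0, 0 and 10 cells and no Apol7c UMI, and one led by Retnla with 22, 19, 4 and 2 cells and 1 UMI, in OE-Vector 1. The make-up of the dendritic class thus differed with the libraries, and summed macrophage markers in the dendritic class were 2018, 1606, 786 and 1042; their part in the class-level difference was not tested.

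**Figure D3:**
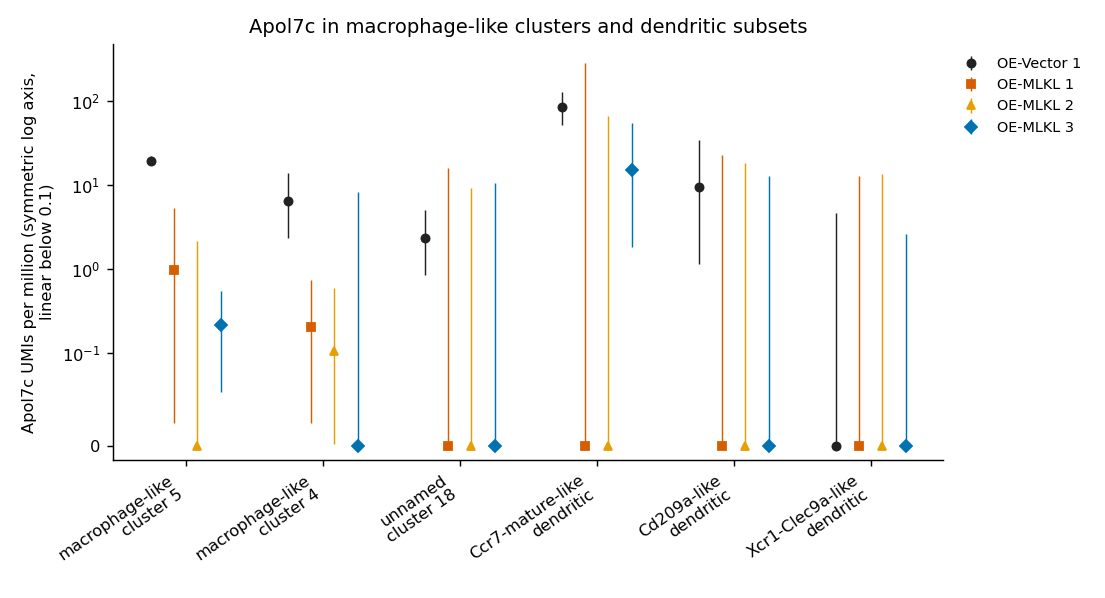
Apol7c CPM (vertical, symmetric log axis, linear below 0.1) in macrophage-like clusters 5 and 4, unnamed cluster 18 and 3 dendritic subsets, by library, with exact 95% Poisson intervals. OE-Vector 1 reaches 83.9 in Ccr7-mature-like dendritic cells and 19.4 in cluster 5, and all libraries are at 0 in Xcr1-Clec9a-like cells.

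Elsewhere Apol7c was at or under the level of cell-free RNA. The barcodes that hold free RNA rather than cells gave 2.48, 0.120, 0 and 0.372. Neutrophil-like cells stood at 0.705, 0, 0 and 0.102, T cell-like cells at 0.182, 0, 0 and 0, and cancer-like cells at 0.250, 0, 0 and 0.0289. Whether these counts came from free RNA was not tested, since a level under that of free RNA does not decide it. Each cancer-like cell that had the gene held 1 UMI. The cancer-like counts were 18 UMIs against 0, 0 and 2, for which no test is given. Among the classes with a fit, in order of its OE-Vector level, Apol7c ran from macrophage-like to dendritic cell-like cells, whose intervals overlap, and then to neutrophil-like, cancer-like and T cell-like cells, whose intervals also overlap. Fibroblast-like cells of OE-Vector 1, outside this order, stood at 2.02 from 1 UMI.

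By UMIs, the other members lay mostly in cancer-like cells. Of their OE-Vector UMIs in kept cells, 93.8% of Apol9a, 91.3% of Apol9b, 95.3% of Apol6 and 93.3% of Apol10b were in cancer-like cells, which made up 23.1% of the cells and held 66.6% of all UMIs. Apol9a stood at 33.1, 10.2, 10.3 and 21.4 in cancer-like cells, highest in OE-Vector 1 and lowest in OE-MLKL 1. Apol9b followed at 23.9, 7.57, 10.4 and 15.4, with OE-Vector 1 again above the others. Apol6 ranked differently, at 6.48, 3.095, 4.74 and 22.7, and Apol10b likewise, at 5.41, 1.15, 1.71 and 8.53. For both of these, OE-MLKL 3 was the highest library and OE-Vector 1 lay within the OE-MLKL range. By level, Apol10b was higher in the few endothelial-like cells of OE-Vector 1 (25, interval 9.17 to 54.4) than in its cancer-like cells. No comparison between members is made from these levels alone, since a 3′ count depends on each transcript's end.

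None of these 4 members passed the test in cancer-like cells, where 0 of 16670 genes (0%) were called by edgeR, 765 had an unadjusted p under 0.05, and DESeq2 called 75 and limma-voom 0. Apol9a fell short with a log2 fold change of −1.37 ± 0.37 (unadjusted p = 0.00912, adjusted p = 0.952 by edgeR), and Apol9b with −1.22 ± 0.34 (adjusted p = 0.952 by edgeR). Apol10b was at −0.70 ± 0.96 and Apol6 at 0.47 ± 0.98. In simulated counts of this class the test recovered 40% of 4-fold changes. For Apol9a and Apol9b, 2 of the 4 members other than Apol7c, OE-Vector 1 lay above all 3 OE-MLKL libraries, as it did for 19.2% of all genes tested. Without OE-MLKL 3, Apol9a (−1.68, adjusted p = 0.0125), Apol9b (−1.41, adjusted p = 0.0356) and Apol10b (−1.91, adjusted p = 0.0440) passed by edgeR, in a fit that called 627 of 16095 genes (3.9%), and Apol6 turned to −0.71.

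These 4 members were concentrated in a single cancer-like cluster rich in interferon-induced genes. The cluster was found with all Apol genes left out; its leading genes were Gbp6, Ifit3, Ifi44, Gbp10 and Iigp1 beside Apol6 and Apol9a themselves. It held 574, 109, 239 and 396 cells, or 18.4%, 1.82%, 3.86% and 9.21% of cancer-like cells, with 25.9%, 2.50%, 4.78% and 12.4% of their UMIs. From it came 65.0%, 29.2%, 40.0% and 49.1% of the cancer-like Apol9a UMIs and 85.8%, 43.4%, 53.0% and 62.0% of the Apol6 UMIs. For Apol9b the shares were 62.1%, 16.9%, 25.7% and 39.4%, and for Apol10b 79.7%, 33.3%, 46.1% and 51.02%. All 4 members had a UMI in 11.5%, 9.17%, 5.86% and 18.2% of its cells, and in at most 0.512% of the other cancer-like cells of any library. Median depth was 29155, 15284, 13224 and 20880 UMIs in this cluster against 19733, 11221, 10618 and 15969 in the others. The others included the shallow cluster 8, of median depth 801 UMIs, which was named from 4 raised markers. Its 669, 451, 931 and 1204 cells count in the shares of cancer-like cells given here.

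Within the interferon-high cluster, the libraries were close for Apol9a and Apol9b. Apol9a stood at 83.1, 119.7, 86.3 and 84.4, with OE-Vector 1 the lowest, and Apol9b at 57.3, 51.2, 55.6 and 48.9, with OE-Vector 1 the highest. Their log2 fold changes were 0.16 ± 0.37 and −0.21 ± 0.32. For Apol9a the interval of OE-Vector 1 (79.0 to 87.3) overlapped those of OE-MLKL 2 (76.9 to 96.5) and OE-MLKL 3 (78.4 to 90.8), and without OE-MLKL 1 the fold change was −0.067, so no direction is read here. Cancer-like cells as a whole held unequal shares of this cluster, and the part of these shares in the values of the whole class was not tested.

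Apol6 and Apol10b behaved otherwise in the same cells. Apol6 stood at 21.4, 53.7, 52.5 and 114, with OE-Vector 1 under every OE-MLKL library (log2 fold change 1.69 ± 0.45, unadjusted p = 0.00274, adjusted p = 0.596 by edgeR). Apol10b stood at 16.6, 15.3, 16.5 and 35.01, only OE-MLKL 3 being apart (0.37 ± 0.42). None of the 12325 genes tested here was called (0%, with 561 at an unadjusted p under 0.05 by edgeR). Without OE-MLKL 3, Apol6 passed, at 1.30 (adjusted p = 0.000433 by edgeR), in a fit that called 687 of 11237 genes (6.11%). Here 1 of 4 members tested, Apol9b, was highest in OE-Vector 1, against 17% of all genes, and 2, Apol6 and Apol9a, were lowest in it, against 26.8% of all genes.

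In the remaining cancer-like cells the levels were lower throughout. Apol9a stood at 15.7, 7.44, 6.51 and 12.4 and Apol9b at 12.2, 6.45, 8.08 and 10.7, both highest in OE-Vector 1. Apol6 stood at 1.24, 1.80, 2.34 and 9.87 and Apol10b at 1.48, 0.787, 0.968 and 4.77, both highest in OE-MLKL 3. These cells lay in different clusters in each library. In cluster 10, which held most of those of OE-Vector 1, Apol9a stood at 16.5, 29.5, 20.2 and 17.3, with OE-Vector 1 the lowest, and Apol6 at 1.18 against 4.46 to 10.6. Apol9a of OE-Vector 1 lay within the OE-MLKL range in clusters 0, 8 and 9 and above it in cluster 15, the dividing cells led by Ube2c and Top2a (15.9, 9.70, 6.36 and 9.22). Apol9b lay within the range in clusters 0 and 10, above it in clusters 8 and 15 and below it in cluster 9. The order in the remaining cancer-like cells as a whole was therefore not that of each cluster. Free RNA of the same libraries gave 24.2, 8.52, 8.53 and 10.4 for Apol9a, 16.6, 7.08, 8.89 and 13.7 for Apol9b, 6.27, 2.64, 5.05 and 13.7 for Apol6 and 3.40, 0.840, 1.08 and 4.27 for Apol10b. The remaining cancer-like cells thus stood under free RNA for every member and library except Apol9a and Apol10b in OE-MLKL 3. This order does not show that their counts came from free RNA, and the part of free RNA in their differences was not tested. The log2 fold change of Apol9a was −0.94 ± 0.36 (adjusted p = 0.998 by edgeR), of Apol9b −0.64 ± 0.33, of Apol6 1.74 ± 1.0 and of Apol10b 0.37 ± 1.01. No member was among the 1 gene of 16443 called (0.00608%), 2 of 4 members lay highest in OE-Vector 1, against 18.9% of all genes, and 1, Apol6, lowest, against 30.8%. Apol9a passed when OE-MLKL 3 was left out (−1.15, adjusted p = 0.0457 by edgeR), where 766 of 16026 genes (4.78%) were called. Both fits within the class were added after seeing the data.

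**Figure D4:**
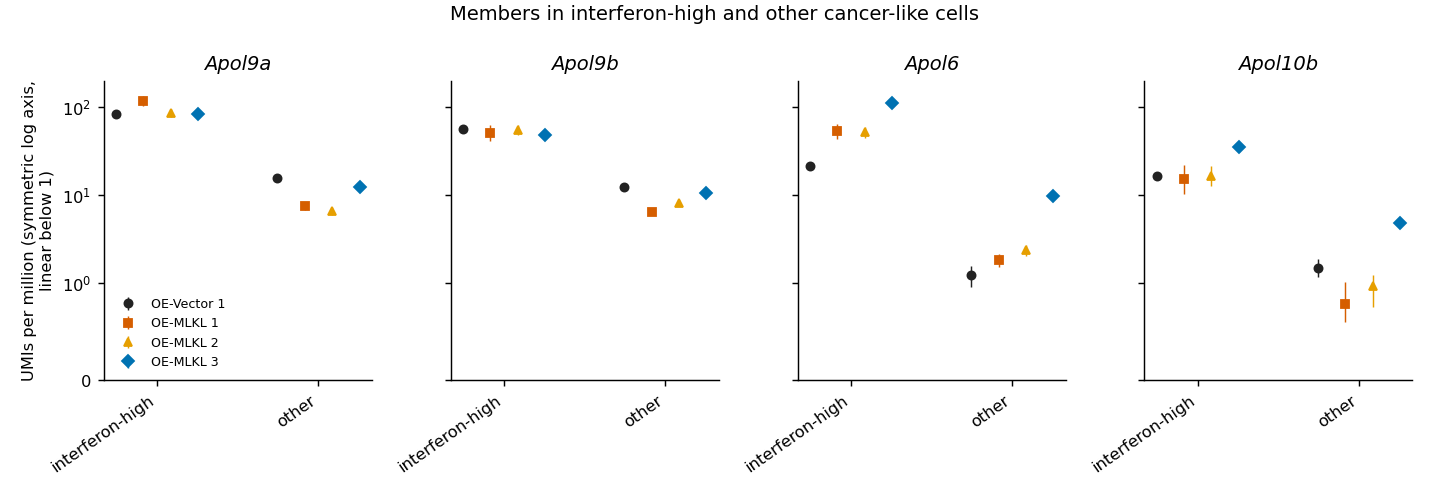
CPM (vertical, symmetric log axis, linear below 1) of 4 members in the interferon-high cluster and in all other cancer-like cells, by library, with exact 95% Poisson intervals. Every library is higher in the interferon-high cluster for every member; Apol6 runs there from 21.4 in OE-Vector 1 to 114 in OE-MLKL 3.

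Of the 4 immune classes tested, T cell-like cells (1103, 586, 695 and 1014) had the highest Apol9b in every library. It stood at 14.6, 5.34, 7.60 and 15.4 (80, 13, 19 and 62 UMIs), with OE-Vector 1 and OE-MLKL 3 high and OE-MLKL 1 and 2 low. Free RNA gave 16.6, 7.08, 8.89 and 13.7. These are levels within free RNA itself, and how much of it entered the cells was not measured. The part of free RNA in the T cell-like Apol9b was therefore not tested. The split between the pair differed. Apol9a made up 29.2% of the Apol9a and Apol9b UMIs of T cell-like cells in OE-Vector 1 (exact 95% interval 21.0% to 38.5%), and 23.5%, 34.5% and 21.5% in the others. In cancer-like cells the share was 58.1% (56.5% to 59.6%), 57.5%, 49.9% and 58.1%, and in free RNA 59.3%, 54.6%, 49.0% and 43.1%. The intervals of T cell-like cells lay below those of free RNA in OE-Vector 1 and OE-MLKL 3 and overlapped them in OE-MLKL 1 and 2.

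**Figure D5:**
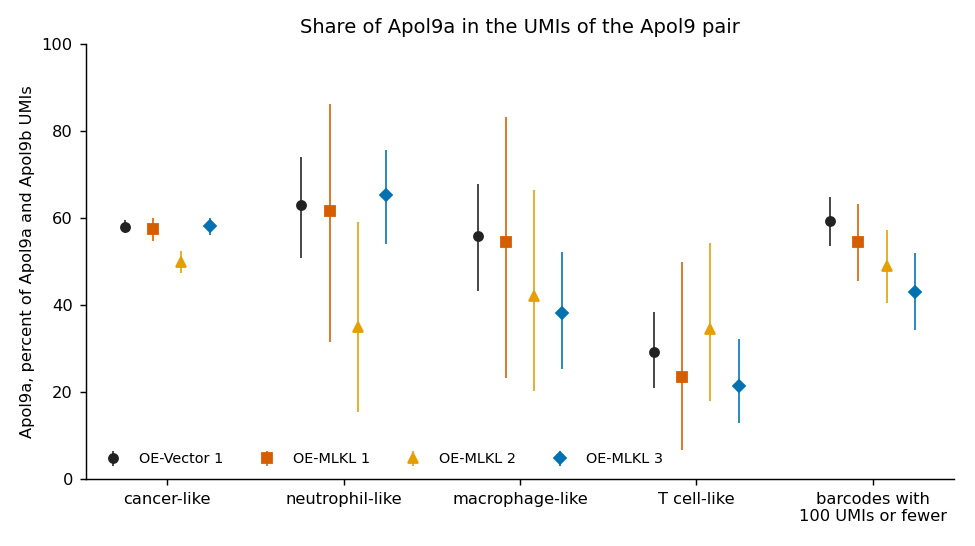
Apol9a as percent of Apol9a and Apol9b UMIs (vertical, from 0 to 100) in 4 cell classes and in barcodes with 100 UMIs or fewer, by library, with exact 95% binomial intervals. T cell-like cells lie between 21.5% and 34.5%, under the 49.9% to 58.1% of cancer-like cells in every library.

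Among T cell-like cells, those with a Cd8a or Cd8b1 UMI and no Cd4 UMI had Apol9b at 15.4, 3.68, 4.73 and 19.6. Cells with a Foxp3 UMI, the marker of regulatory T cells, were few (63, 23, 53 and 59) and stood at 24.5, 28.4, 46.0 and 5.75, from 9, 2, 7 and 1 UMIs. Their intervals lie above those of the Cd8 cells in OE-MLKL 2 and overlap them in the other libraries, so that no order between these cells is read from them. Apol9a in T cell-like cells was lower, at 6.01, 1.64, 4.001 and 4.21. The log2 fold changes were −0.89 ± 0.64 for Apol9a and −0.66 ± 0.48 for Apol9b, neither of which passed (adjusted p = 0.999994 for both, edgeR). Of 11727 genes, 5 were called (0.0426%), none a member; Apol9a alone was highest in OE-Vector 1, 1 of 2 members against 18.2% of all genes.

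Neutrophil-like cells (6730, 5248, 8107 and 6515) carried the members at low levels. Apol9a stood at 5.41, 1.89, 1.08 and 5.41 and Apol9b at 3.17, 1.18, 2.01 and 2.86, all under the free RNA of the same library. Apol6 stood at 0.823, 0, 0.464 and 2.35. The neutrophils split between libraries as the macrophages did, and median depth was 1171, 716, 741 and 1361 UMIs. The log2 fold changes were −1.09 ± 0.79 (adjusted p = 0.749), −0.80 ± 0.61 (adjusted p = 0.765) and 0.15 ± 1.46 (adjusted p = 0.986, all by edgeR). No gene of 12904 was called by edgeR (0%, 1038 at an unadjusted p under 0.05), while DESeq2 called 91 and limma-voom 0. Apol9b, 1 of 3 members tested, was highest in OE-Vector 1, against 17.8% of all genes.

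Macrophage-like cells had little of the members other than Apol7c. Apol9a stood at 2.59, 0.547, 0.711 and 1.09, Apol9b at 2.04, 0.455, 0.977 and 1.76 and Apol6 at 0.545, 0, 0.355 and 1.66, each below free RNA. Their log2 fold changes, given without a test, were −1.78, −0.99 and 0.29. That of Apol7c, the gene this contrast chose, was −6.62; over all 13441 genes of the class 1 (0.00744%) was called, and nothing is read from that count. Apol10b was at 0.682, 0.0911, 0.178 and 0.673 and was not fitted. In dendritic cell-like cells each other member had at most 5 UMIs in any library.

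Lists of interferon and maturation genes, chosen with earlier results of these data known, are set beside the members. Whether the members' differences belong to these pathways was not tested. Type I interferon-induced genes had a median log2 fold change below 0 in every class, −0.73 in dendritic, −1.07 in macrophage-like, −1.79 in neutrophil-like, −1.47 in T cell-like and −1.37 in cancer-like cells, where the median over all genes was 0.02 to 0.04. Between 12 and 18 of the 20 listed genes were tested per class, and only 1 passed in any of them, Isg15, a ubiquitin-like modifier, in dendritic cell-like cells (−2.02 ± 0.42, adjusted p = 0.0431 by edgeR). Summed over 18 of the genes, cancer-like cells had 822, 279, 344 and 492 and the interferon-high cluster 1759, 2414, 1810 and 1450, so that OE-Vector 1 was the highest library in the class and not in the cluster. In the interferon-high cluster the median was 0.11, with 0 of 18 called.

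Interferon-gamma-induced genes, among which are guanylate-binding proteins and antigen-processing genes, had medians of −0.28, −0.30, −0.70, −0.32 and −0.95 in the same order of classes, with 0 of 15 called in each by edgeR. Their summed level was highest in OE-MLKL 3 in each of these 5 classes, with OE-Vector 1 second, as in macrophage-like cells (2415, 1462, 2202 and 2902) and cancer-like cells (1524, 511, 703 and 1675). Dendritic maturation genes had a median of −0.55 in dendritic cell-like cells, with 0 of 16 called; Ccr7 was at −1.27 ± 0.49 (adjusted p = 0.623 by edgeR) and Fscn1 at −1.11 ± 0.53. In macrophage-like cells, which held most Apol7c, the maturation median was 0.04 and that of NF-kappaB target genes 0.21, with no gene called in either.

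Of the 9 other Apol genes, Apol11a had no UMI. Apol7e was found in T cell-like cells, at 17.3, 11.1, 13.6 and 41.4, highest in OE-MLKL 3. Apold1, a more distant relative of vascular endothelium, stood at 267, 133 and 241 in the few endothelial-like cells of OE-Vector 1 (15 cells), OE-MLKL 2 (35) and OE-MLKL 3 (22). The 4 such cells of OE-MLKL 1 had no Apold1 UMI. Over all kept cells Apol8 had 246, 83, 86 and 182 UMIs and Apol10a 70, 7, 9 and 28, both highest in OE-Vector 1, and 184, 69, 54 and 141 of the Apol8 UMIs were in cancer-like cells. Apol7a had 83, 44, 25 and 128, Apol7b 5, 2, 1 and 16, and Apol11b 2, 1, 0 and 5, all highest in OE-MLKL 3. Apol7d, annotated as an antisense gene of Fn1 on chromosome 1, had 50, 204, 114 and 76, of which 39, 146, 76 and 58 were in cancer-like cells.

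The members were also correlated with other genes and with each other over 67 profiles, each a combination of cluster and library. Among 15761 genes, Apol genes left out, those most like Apol7c were Adgre4 (Pearson r = 0.72), Retnla (0.63), Lyz1 (0.63), Ccl24 (0.60) and Gabbr2 (0.58), of which Adgre4, Retnla, Lyz1 and Ccl24 are known from macrophages. Outside the family, Apol6 and Apol10b were most like Gbp10 (0.86 and 0.81), an interferon-induced GTPase, followed by Ido2 (0.79) and Gm4841 (0.77) for Apol6 and by Wars (0.69) and Gm4841 (0.66) for Apol10b. Apol9a was nearest, again outside the family, to Ccdc141 (0.81), Ms4a4d (0.79) and Slit2 (0.79), and Apol9b to Tcf7 (0.78), a T cell transcription factor, Ccdc141 (0.77) and Sp6 (0.74). Between members, r was 0.83 for Apol9a and Apol9b and 0.82 for Apol6 and Apol10b, and from −0.17 to −0.04 for Apol7c with each of the others. These profiles share 4 libraries and their depths, and r is a description. Apol7c was picked for its level in OE-Vector 1 macrophage-like cells, so its r values partly restate that choice. Each profile pools all cells of a cluster, so a high r need not mean the same cells. Adgre4 and Retnla were leading genes of unnamed dendritic clusters with at most 1 Apol7c UMI each, while Ccl24 was higher in macrophage-like cells with Apol7c.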

How the data were processed

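Droplet-based 3′ single-cell libraries of orthotopic KPC tumours were analysed. The authors deposited unfiltered UMI counts per gene and barcode, not normalised. Those of 1 OE-Vector and 3 OE-MLKL tumours were used, and those of the other 2 OE-Vector samples were not analysed here. The submitters' processing notes name Cell Ranger 2.1.1 and the mm10 genome, whereas the file headers name Cell Ranger 7.1.0, so the version and whether intronic reads were counted are not settled. The tumours of a group come from separate mice per the methods of the study, and the p-values rest on the spread between the 3 OE-MLKL tumours.

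Barcodes were kept from 500 UMIs upwards if over 200 genes were detected, mitochondrial genes took under 10% of the UMIs and haemoglobin genes at most 5%. Between 1893 and 4255 barcodes per library were removed as doublets by the share of simulated doublets among each cell's neighbours. Cells were clustered (scanpy 1.11.5, 10 principal components, Leiden resolution 1) with all Apol genes left out, and clusters were named from marker lists, those led by another class staying unnamed. Dendritic cell-like cells were clustered again at resolution 0.5. Levels are CPM (UMIs of a gene over all UMIs of the same cells, on the counts-per-million scale) with exact 95% Poisson intervals. A level in free RNA is the makeup of that RNA, and how much of it entered the cells was not measured. Intervals and the limit of 3 counts cover counting error only. They take UMIs as independent, so they are too narrow where a few cells hold many UMIs, as for Apol7c. UMIs were summed per library and class and tested with edgeR 4.0.16 (quasi-likelihood, TMM scaling, filterByExpr, Benjamini-Hochberg over all genes of the class, threshold 0.05). The design has 2 residual degrees of freedom, all from OE-MLKL, and OE-Vector 1 is assumed to vary like them. The test was checked on simulated counts with 200 well-covered genes changed per class. In dendritic, macrophage-like, neutrophil-like, T cell-like and cancer-like cells it recovered 63%, 67%, 46%, 62% and 40% of 4-fold changes. Of 16-fold changes it recovered 99%, 95%, 96%, 99% and 87%. False calls were 12 of 174, 16 of 178, 32 of 174, 16 of 177 and 9 of 136 in the same order. DESeq2 1.42.0, limma-voom (limma 3.58.1), other filters, scalings, cell minima and clusterings, and leaving out each OE-MLKL library were the alternatives.

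Gene positions came from GENCODE vM21 (32158 of 32285 identifiers matched) and promoters from RefSeq (GRCm38.p6; 12 of 14 Apol genes matched). The members, the gene lists and the markers were chosen with earlier results of these data known. The text names the 5 members in every class tested, the other Apol genes by level, the 5 genes most like Apol7c and the 3 most like each other member, Apol genes left out, by Pearson correlation of log2(CPM + 1) over clusters of at least 50 cells, and the listed genes with the highest levels. Genes set beside Apol7c within macrophage-like cells were chosen after their values were seen.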

Additional observations from a re-analysis of the deposited data

Results flagged for a closer look

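The order of the libraries for Apol9a was not the same in every set of cells. OE-Vector 1 was above all 3 OE-MLKL libraries in macrophage-like cells (2.59 CPM), T cell-like cells (6.01), cancer-like cells (33.1) and cancer-like cells outside the interferon-high cluster (15.7). In the interferon-high cluster it was the lowest, at 83.1 against 119.7, 86.3 and 84.4, with an interval that overlapped those of OE-MLKL 2 and 3, and the log2 fold change turned to −0.067 without OE-MLKL 1. The difference between these sets of cells was not tested, and the 3 cancer-like values share cells.

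Cells of the unnamed clusters, which were left out of the named classes, carried 4 members above their OE-Vector level in OE-MLKL 3. The levels in OE-MLKL 3 were 5.05 for Apol10b, 17.9 for Apol9a, 11.9 for Apol9b and 11.9 for Apol6, against 0.229, 5.73, 4.13 and 0.459 in OE-Vector 1. These cells were not of like kinds: 321 of the 414 in OE-Vector 1 were of cluster 18, led by Mmp12 and Arg1, and 160 of the 224 in OE-MLKL 3 were of cluster 21, led by the goblet cell genes Fcgbp, Zg16 and Tff3. Cluster 11, led by Dcn and Gm49504 and with both fibroblast and cancer markers raised, held 70, 997, 1145 and 21 cells. Its cells enter no cancer-like level given here. Within cluster 21, OE-Vector 1 (23 cells) was above OE-MLKL 3 for Apol9a (26.8 against 23.1) and Apol9b (18.5 against 15.4) and below it for Apol6 (2.06 against 14.2) and Apol10b (2.06 against 6.50), with overlapping intervals for all 4. Apol6 and Apol9b in OE-MLKL 3 were also under their level in free RNA there (13.7 for both). In barcodes with 100 UMIs or fewer, Apol6 stood at 13.7 in OE-MLKL 3 and at 6.27 in OE-Vector 1.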

How the results depend on the processing

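The direction and side of the threshold held for 141 of 153 recomputed fold changes of the members in the classes with a test, 7 moved past the threshold and 5 turned: Apol6 in neutrophil-like cells with limma-voom (−0.36), in cancer-like cells without OE-MLKL replicate 3 (−0.71; −0.71 to 0.87 over the 3 libraries left out in turn), Apol10b without it in the interferon-high cluster (−0.068; −0.068 to 0.53) and in the other cancer-like cells (−0.74; −0.74 to 0.74), and Apol9a in the interferon-high cluster without OE-MLKL replicate 1 (−0.067; −0.067 to 0.29). The cause was not tested. The 153 include Apol7c in dendritic cell-like and cancer-like cells, which passed the filter on low counts through OE-Vector 1 alone. Its direction was thus set beforehand and is not read as stability. Its dendritic fits without that filter and without OE-MLKL 1 are among the 7. In macrophage-like cells, whose fold changes have no test, Apol7c ranged from −6.90 to −6.35 over 14 settings, and Apol6 (0.29) changed sign with limma-voom (−0.57) and with doublets kept (−0.11). No paired analysis was possible because OE-Vector had 1 count matrix among those used here. The counts of the other OE-Vector samples were not analysed.

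Counts of called genes were less stable. In dendritic cell-like cells the 22 became 13 with DESeq2, 9 with limma-voom, 14 when scaled by total UMIs, 106 without the filter, 12 with a mean of at least 20 UMIs, and 47 to 324 on leaving out a single OE-MLKL library (324 for OE-MLKL 3, 83 for 1, 47 for 2). In macrophage-like cells the 1 became 42 with DESeq2, 0 with limma-voom, with a mean of at least 20 UMIs, with doublets kept and at Leiden resolution 2, 3 with the similar unnamed cluster kept (chosen after seeing the data), and 3 to 86 with 1 library left out (86 without OE-MLKL 1, 75 without 3). In neutrophil-like cells the 0 became 91 with DESeq2, 20 without the filter, 2 with at least 1000 UMIs and 500 genes, and 0 to 1205 with a library left out (62 without OE-MLKL 1, 1205 without 3). In T cell-like cells the 5 became 13 with DESeq2, 0 with limma-voom, 19 without the filter and 39 to 308 with a library left out (45 without OE-MLKL 1, 308 without 3). In cancer-like cells the 0 became 75 with DESeq2, 1 without the filter, with doublets kept and with the higher cell minimum, and 10 to 627 with a library left out (131 without OE-MLKL 1, 627 without 3). The 2 parts of the cancer-like cells, fitted after seeing the data, went from 0 to between 1 and 687 (interferon-high, 33 without OE-MLKL 1) and from 1 to between 4 and 766 (others, 113 without OE-MLKL 1).

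Of 401 recomputed levels, 385 moved by less than their counting interval. With doublets kept, macrophage-like cells had Apol9a at 4.82, 1.55, 1.76 and 2.71 CPM (OE-Vector 1, OE-MLKL 1, 2 and 3), Apol9b at 3.73, 2.39 and 2.51 and Apol6 at 1.71, 1.14 and 3.79 (OE-Vector 1, OE-MLKL 2 and 3), and Apol10b at 1.28 in OE-MLKL 3; Apol7c in dendritic cell-like cells of OE-MLKL 1 was at 6.49, and Apol9a in T cell-like cells of OE-MLKL 3 at 7.05. With at least 1000 UMIs and 500 genes, Apol9a and Apol9b were at 0 in neutrophil-like cells of OE-MLKL 1. Without its richest cell, Apol7c in macrophage-like cells of OE-Vector 1 was at 16.03. Thinning to 1000 UMIs moved 63 of 100 shares of cells.

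The comparison rests on 1 OE-Vector tumour, so a difference of this tumour and a difference of the group cannot be told apart. Subsets of few cells limit the rest, as did a Ccr7-mature-like subset of 3 cells in OE-MLKL 1.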

Other observations

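Rare stromal cells carried members as well. In endothelial-like cells (15, 4, 35 and 22 in OE-Vector 1 and OE-MLKL 1, 2 and 3), Apol10b stood at 25, 0, 7.59 and 17.2 CPM, from 6, 0, 2 and 5 UMIs, with intervals that overlap. Cancer-like cells of the same libraries stood at 5.41, 1.15, 1.71 and 8.53. In OE-Vector 1 the endothelial-like interval (9.17 to 54.4) lay above the cancer-like one (4.88 to 5.97). In fibroblast-like cells (39, 170, 107 and 111), Apol9a stood at 14.2, 10.6, 7.40 and 19.95, from 7, 20, 6 and 33 UMIs. Free RNA of the same libraries gave 24.2, 8.52, 8.53 and 10.4, and cancer-like cells 33.1, 10.2, 10.3 and 21.4. In OE-MLKL 3 the interval in fibroblast-like cells (13.7 to 28.02) lay above that of free RNA (7.86 to 13.5). Apol9b in OE-MLKL 3 stood at 16.3 in fibroblast-like cells, and at 15.4 in both T cell-like and cancer-like cells.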
